A study of Mus musculus with 7 samples.

Results

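The genes described here were 4 insulin-like growth factor (IGF) binding proteins, Igfbp2, Igfbp3, Igfbp4 and Igfbp5, and the type 1 IGF receptor gene Igf1r, in neural crest of the mouse pharynx. They were taken by symbol, 5 of the 32285 genes in the count tables, with no threshold on a measured value, although earlier results of these data were known. Single cells carrying a green reporter were sorted from mouse embryos of a mixed Swiss-Webster background in which Wnt1-Cre recombines a ROSA-EGFP allele (Wnt1-Cre/+;ROSA-EGFPf/+). Wnt1-Cre marks neural crest cells and also the dorsal neural tube, so neural cells were part of the sort. The 7 libraries were 4 controls, 1 at embryonic day (E) 8.5, 1 at E9.5 and 2 at E10.5, and 3 titled Tbx1null, 1 at E9.5 and 2 at E10.5. Each library was made from pooled embryos, so the spread between libraries is that between pools. Tbx1 encodes a T-box transcription factor of the pharyngeal endoderm, ectoderm and mesoderm, and its loss disturbs the pharyngeal arches and the outflow tract. The titles of these 3 libraries and the study's text call them null, whereas their genotype field reads Wnt1-Cre/+;Tbx1+/-;ROSA-EGFPf/+, and they are called Tbx1null below as in the titles. Tbx1 itself was read at 0.77 to 7.62 CPM (counts-per-million of all UMIs) in mesenchymal cells of all libraries. At E10.5 it was 7.62 and 4.59 CPM in the controls and 6.61 and 7.07 CPM in the Tbx1null libraries, which overlapped. Other classes differed from this, as Hox 3 cells held 10.1 and 8.85 CPM in the controls and 5.56 and 3.40 CPM in Tbx1null, and neural progenitors held 2.19 and 2.11 CPM (44 and 12 UMIs) in the controls and 0.065 and 0.13 CPM in Tbx1null, where each library had 2 UMIs, under the floor of 3. At E9.5 progenitors held 15 UMIs in the control and 2 in the Tbx1null library. The Foxf1 cells overlapped at 22.6 and 14.3 CPM against 14.4 and 25.7 CPM. As a null allele can still give 3′ reads, these values do not decide between the title and the genotype field. The paper's own summary of its experiments lists these libraries as Tbx1-/-, and the paper reports a hypoplastic caudal pharyngeal apparatus in its Tbx1 null embryos.

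Tissue also differed with stage, and the wording of the dissection differed with genotype. The E8.5 library came from the front part of the embryo and was made with an earlier kit version than the rest. The first arch was part of the dissection at E9.5 and not at E10.5, and for that reason effects of stage and of tissue cannot be told apart. At E10.5 the labels describe the control dissection as arches 2 to 6 with the heart and the Tbx1null dissection as the region below arch 1 with the heart. The paper's methods do not separate the genotypes, and describe removal of the head and arch 1 at E10.5. Its summary of the experiments adds the neural tube for both genotypes. Any difference in tissue beyond this wording was not tested and could not be told apart from genotype. The paper's summary also lists Tbx1null E10.5 replicate 1 at fewer somites, the body segments by which embryos are staged, than the other E10.5 libraries. The part of this difference in the values below was not tested.

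IGF1 and IGF2 are secreted growth factors that act through IGF1R, a receptor tyrosine kinase that signals through insulin receptor substrates, PI3 kinase and AKT. In body fluids and in the matrix most IGF is held by binding proteins, which keep it from the receptor, carry it, or release it when proteases such as PAPP-A cut them. IGFBP2 and IGFBP5 are abundant in embryonic tissues, IGFBP4 is the main substrate of PAPP-A, and IGFBP3 is the chief carrier of IGF in adult blood. The mesenchymal neural crest of the arches forms the facial and hyoid skeleton and the smooth muscle of the arch arteries and outflow tract, and its position along the body axis can be read from Hox genes.

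Positions of the genes are given on GRCm38, and the short stretches printed for each gene are the 60 bases just before a RefSeq transcription start (GRCm38.p6, read on the gene's strand), shown because they hold the letters of a core promoter and place each gene. Igfbp2 (ENSMUSG00000039323) lies at chr1:72824503-72852474 on the plus strand, and Igfbp5 (ENSMUSG00000026185) at chr1:72857932-72874884 on the minus strand, tail to tail with Igfbp2 and 5457 bases away. Igfbp3 (ENSMUSG00000020427) lies at chr11:7206086-7213923 on the minus strand beside Igfbp1, Igfbp4 (ENSMUSG00000017493) at chr11:99041244-99054392 on the plus strand, and Igf1r (ENSMUSG00000005533) at chr7:67952827-68233668 on the plus strand. Capitals mark a hexamer close to the TATA box on the gene's strand, for which the form TATAAA was found in Igfbp4, the form TATATA in Igfbp3 and the form TATTTA in Igfbp5, letters that were chosen after the sequences had been seen. A further start is listed for Igfbp2, and the stretch shown for it is that of the upstream start.
Igfbp2, chr1:72824420-72824479: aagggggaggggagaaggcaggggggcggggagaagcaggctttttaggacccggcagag
Igfbp3, chr11:7213924-7213983: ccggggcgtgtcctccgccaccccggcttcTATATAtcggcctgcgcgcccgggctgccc
Igfbp4, chr11:99041184-99041243: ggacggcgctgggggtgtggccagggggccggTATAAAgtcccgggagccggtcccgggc
Igfbp5, chr1:72874866-72874925: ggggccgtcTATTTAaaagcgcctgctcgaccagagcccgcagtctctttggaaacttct
Igf1r, chr7:67952197-67952256: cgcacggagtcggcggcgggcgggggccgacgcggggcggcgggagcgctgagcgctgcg
The hexamer began 30 bases before the RefSeq start in Igfbp3, 28 bases in Igfbp4 and 51 bases in Igfbp5, and none of the 3 was found in the stretches of Igfbp2 and Igf1r. The RefSeq start meets the end of the printed gene position in Igfbp3 and Igfbp4 only. The Igfbp5 stretch lies partly inside the printed gene, so its hexamer is closer to that end than to the RefSeq start. The stretches of Igfbp2 and Igf1r end short of the printed gene. Of 32851 mouse promoters read the same way, 5.35% held at least 1 of these hexamers, and TATAAA alone was found in 2.87%, TATATA in 1.56% and TATTTA in 1.40%. The GC box letters GGGCGG were searched on both strands over 300 bases around each start and occurred in 35.7% of promoters. They were found 3 times at the upstream start of Igfbp2 and 2 times at Igf1r. They were not found at the further start of Igfbp2 or at Igfbp3, Igfbp4 or Igfbp5.

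Cells were put in classes by the unique molecular identifiers (UMIs, counted molecules) of a few genes that are not members. Mesenchymal cells had 2 or more UMIs of Twist1, Prrx1 and Prrx2 together, and were divided into Foxf1 cells (any Foxf1 UMI, a gene of the distal and caudal arch and outflow region), Hox 3 cells (Hoxa3, Hoxb3 or Hoxd3, the third arch and behind), Hoxa2 cells (the second arch and behind) and cells with none of these UMIs, called Hox-less. Sox10 cells, which hold migrating crest, glia and melanoblast precursors, had 2 or more Sox10 UMIs. Neurons were taken by Elavl3 and Elavl4 and neural progenitors by Sox1, Sox2 and Sox3. The libraries held 5987 to 12047 cell barcodes and 140264662 to 234844769 UMIs in all, the median kept cell had 14824 to 22882 UMIs, and no pair of libraries shared more than 0.41% of the barcodes of the smaller library. Marker genes that took no part in the classes were highest in their own class, except that the markers of Hox 3 mesenchyme in Tbx1null E10.5 replicate 2 summed to 98.4 CPM in Hox 3 cells and 103 CPM in Foxf1 cells.

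The mesenchymal rule also took in cells with neural transcripts. Of the mesenchymal cells, 17.3% had 2 or more UMIs of the neuron or progenitor genes at E8.5, 10.99% and 9.76% in control and Tbx1null at E9.5, 12.8% and 4.07% in the E10.5 controls, and 26.4% and 48.3% in the E10.5 Tbx1null libraries. These cells carried few mesenchymal UMIs, a median of 2 to 5 per library of Twist1, Prrx1 and Prrx2, against 7 to 44 in the other mesenchymal cells. The share was highest among Hox 3 cells, from 8.07% in control E10.5 replicate 2 to 60.2% in Tbx1null E10.5 replicate 2, and was 0.727% to 17.1% among Foxf1 cells from E9.5 on. The main tests that use a mesenchymal class are therefore given with and without these cells, and a level or test given once is that of the full class. Tbx1null E10.5 replicate 2 stood apart in a further way, as 4 blood markers summed to 6.71 to 9.32 CPM in each of its classes and to at most 2.73 CPM in those of the other libraries, and neuron markers remained at 139 CPM in its mesenchymal cells after the cells with neural UMIs were left out, against 6.18 to 61.2 CPM elsewhere. The part of free RNA in the values below was not tested.

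**Figure D1:**
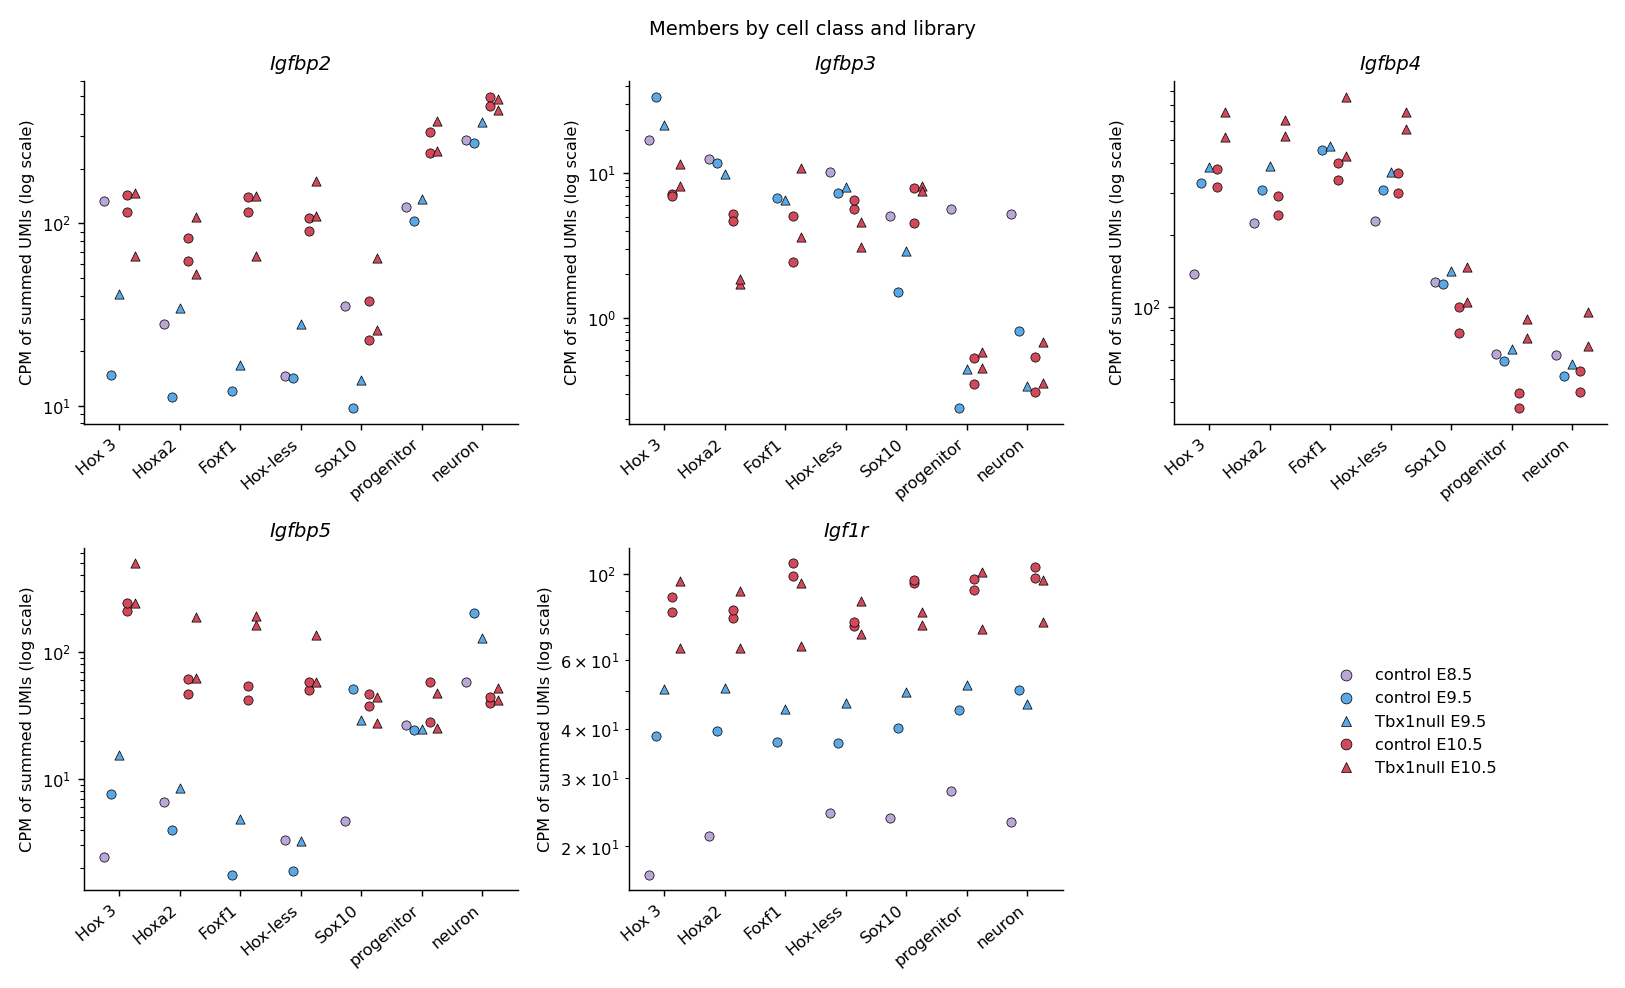
CPM (log axis) of each member in the 7 cell classes, 1 point per library, with colour for stage, circles for control and triangles for Tbx1null libraries, mesenchymal classes without cells with 2 or more neural UMIs, and classes under 10 cells and values of 0 not drawn. Igfbp4 was highest in mesenchymal classes, Igfbp2 in neurons, Igfbp5 changed its order of classes with stage, Igfbp3 was lowest in neural cells from E9.5 on, and Igf1r was close to level over the classes of a library.

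The levels below are the CPM of a gene among all UMIs of the cells of a class in a library. Since summed counts are used, fewer cells making a transcript and less transcript per cell cannot be told apart. Reads came from the 3′ end and were not divided by gene length, so levels are compared within a gene only. The highest class over the lowest class in a library was 7.47-fold to 28.5-fold for Igfbp2, 3.30-fold to 9.12-fold for Igfbp4, 5.63-fold to 116-fold for Igfbp5 and 1.15-fold to 1.43-fold for Igf1r, all with the rule's full classes.

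Igfbp4, whose product restrains IGF until PAPP-A cuts it, was read mainly in mesenchymal cells. In all mesenchymal cells it stood at 205 CPM at E8.5, at 305 and 362 CPM in control and Tbx1null at E9.5, at 316 and 280.2 CPM in the E10.5 controls and at 547 and 325 CPM in the E10.5 Tbx1null libraries. Each of these exceeded the Sox10 value of its library, which ranged from 78.0 to 147 CPM, and neural progenitors and neurons were lower again at 37.7 to 95.6 CPM. Foxf1 cells were the highest class in 5 of 7 libraries, at 452 and 467 CPM at E9.5, at 399 and 338 CPM in the E10.5 controls and at 753 CPM in Tbx1null E10.5 replicate 1. Hox-less cells were the highest at E8.5, at 207 CPM, and in Tbx1null E10.5 replicate 2, at 441 CPM against 409 CPM in Foxf1 cells. Over the 4 E10.5 libraries, with class and library in the fit, Igfbp4 was lower in Sox10 than in mesenchymal cells by a log2 fold change of -1.76 ± 0.07 (SE; edgeR adjusted p = 2.60e-06), a comparison in which 18.4% of genes were called, and lower in progenitors than in mesenchymal cells by -2.66 ± 0.17 (adjusted p = 6.53e-05), with 17.6% called. Without cells with neural UMIs the changes were -2.06 and -2.94, with 19.5% and 23.1% of genes called. A gene was called at an adjusted p under 0.05 and, for classes and stages, also at a change of at least 2-fold.

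Between the mesenchymal classes and between stages Igfbp4 moved little. It was 0.47 ± 0.09 higher on the log2 scale in Foxf1 than in Hox 3 cells (adjusted p = 0.00773, under the fold threshold), and -0.01 without cells with neural UMIs (adjusted p = 0.951). From E9.5 to E10.5 the change in mesenchymal cells, in the edgeR fit with TMM scaling factors, was -0.41 ± 0.25 (adjusted p = 0.258). The mean CPM at E10.5 over that at E9.5 was 0.977 in controls and 1.20 in Tbx1null. The genotypes thus went opposite ways in CPM, and no direction is read from the fit. In Sox10 cells the 124 and 142 CPM of E9.5 were followed by 99.8 and 78.0 CPM in controls and 147 and 104 CPM in Tbx1null libraries, so that the stages overlapped, with a log2 change of -0.72 ± 0.20 with adjusted p = 0.0290 and again under the fold threshold. Tbx1null E10.5 replicate 1 held the highest Igfbp4 value in each class.

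Igfbp2, a binding protein of embryonic epithelia, nervous system and mesenchyme, was highest in neurons among the 7 classes in 7 of 7 libraries. The smooth muscle subset and the cells in no class, both given below, were not in this ranking and were higher in some libraries. Neurons held 287 CPM at E8.5, 276 and 358 CPM in control and Tbx1null at E9.5, 496 and 439 CPM in the E10.5 controls and 419 and 482 CPM in the E10.5 Tbx1null libraries. Neural progenitors, the next class in 6 of 7 libraries, held 123 CPM, then 103 and 137 CPM, then 318 and 244 CPM in controls and 249 and 364 CPM in Tbx1null. In Tbx1null E10.5 replicate 1 Hox-less mesenchymal cells were above them at 271 CPM. Sox10 cells were the lowest class at E9.5 and E10.5 at 9.71 to 64.5 CPM, a range that overlaps the mesenchymal one over stages but lies below it within each library from E9.5 on. At E10.5 Igfbp2 was 1.04 ± 0.09 higher on the log2 scale in progenitors than in mesenchymal cells (adjusted p = 0.000252) and 1.48 ± 0.08 higher without cells with neural UMIs. The former change fell just under the fold threshold with doublets kept (0.98) and without control replicate 1 (0.97) or control replicate 2 (0.96). It was -1.97 ± 0.08 lower in Sox10 than in mesenchymal cells (adjusted p = 2.00e-06) and -1.53 ± 0.14 without cells with neural UMIs (adjusted p = 2.97e-05). Neurons exceeded progenitors by 0.68 ± 0.06 (adjusted p = 6.65e-05, under the fold threshold), and no member was called there, where 18.6% of genes were.

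Within mesenchyme the Igfbp2 level moved with the neural UMIs. Mesenchymal cells without them held 17.6 CPM at E8.5, 13.7 and 29.0 CPM in control and Tbx1null at E9.5, 114 and 87.8 CPM in the E10.5 controls, and 71.3 and 138 CPM in the E10.5 Tbx1null libraries. Mesenchymal cells with them held 83.3 CPM, then 60.2 and 91.2 CPM, then 294 and 172 CPM, and 275 and 333 CPM, so each library's cells with neural UMIs were higher. Hox 3 cells were 1.00 ± 0.04 higher than Hoxa2 cells on the log2 scale (0.996, adjusted p = 3.05e-05), which missed the fold threshold, and 0.61 ± 0.08 higher without cells with neural UMIs (adjusted p = 0.00114). Leaving out control replicate 2 gave 1.01, past the fold threshold. In that comparison 5.67% of genes were called, and 3.19% without cells with neural UMIs. Foxf1 cells were 0.57 below Hox 3 cells on the log2 scale (-0.57 ± 0.13, adjusted p = 0.0142) and -0.07 without cells with neural UMIs (adjusted p = 0.310), with 9.4% and 4.77% of genes called. Hox-less cells were 0.92 ± 0.20 above Hoxa2 cells (adjusted p = 0.0156) and 0.62 ± 0.18 without cells with neural UMIs (adjusted p = 0.0415), under the fold threshold in both, with 3.21% and 3.13% called. Leaving out control replicate 1 (1.09) or control replicate 2 (1.08) took the former past it.

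Igfbp2 was also higher in cells with smooth muscle transcripts than in the other mesenchymal cells in 6 of 7 libraries. Mesenchymal cells with 5 or more UMIs of Acta2, Tagln and Cnn1, 10 to 233 cells a library, held 123 and 349 CPM in control and Tbx1null at E9.5. The other mesenchymal cells held 15.8 and 28.6 CPM there. At E10.5 the subset held 234 and 86.8 CPM in controls and 606.5 and 334 CPM in Tbx1null libraries, and the other mesenchymal cells 132 and 91.4 CPM and 101 and 227 CPM. Control replicate 2 was thus the exception, with the subset below the rest. Without cells with neural UMIs the 4 E10.5 values were 209 and 79.1 CPM in controls and 393 and 342 CPM in Tbx1null, so the groups did not overlap in either form. This subset was added as a description and had no test of genotype. Heart muscle markers summed to 3.51 to 1547 CPM in it over the libraries, against 1.80 to 43.6 CPM in all mesenchymal cells. Epithelial markers summed to 101 to 396 CPM in it, against 14.7 to 57.7 CPM. The part of such cells in its Igfbp2 level was not tested. Distal arch cells, those with a Dlx5 or Dlx6 UMI, were lower in Igfbp2 than the other mesenchymal cells in 7 of 7 libraries, with 10.3 against 24.4 CPM in the E9.5 control and 79.1 against 203 CPM in control E10.5 replicate 1.

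**Figure D2:**
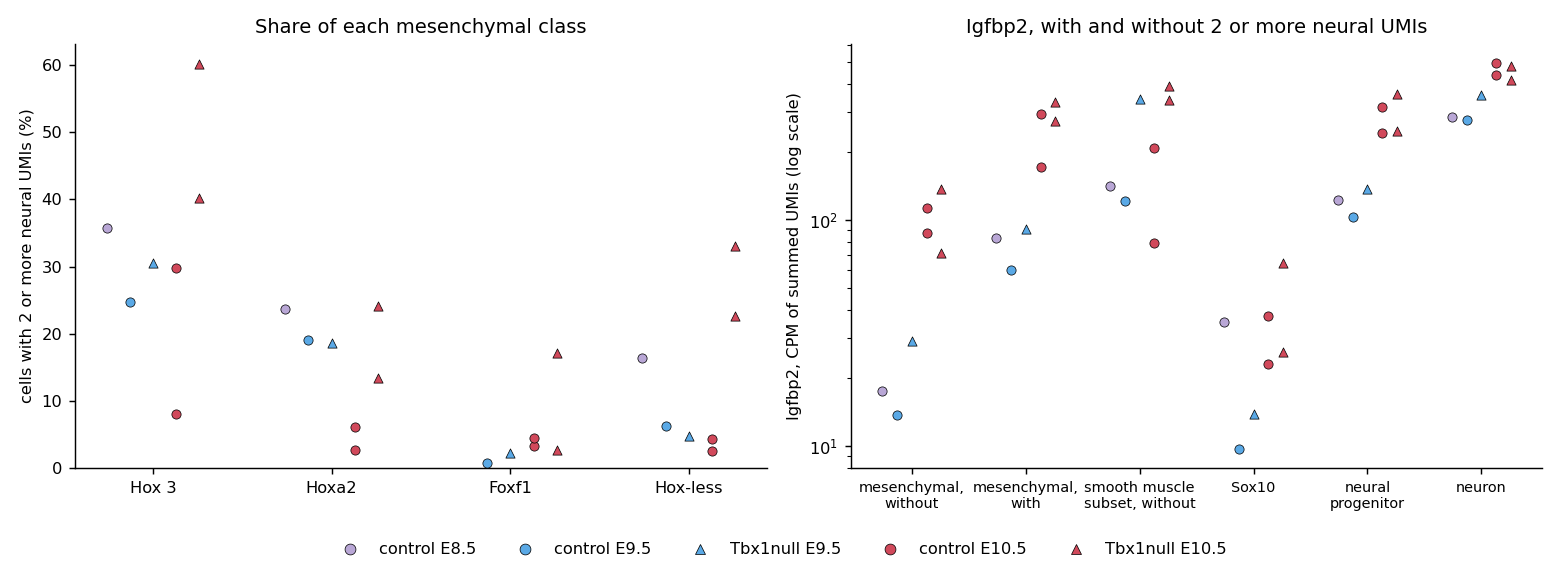
Left, percent of cells with 2 or more neural UMIs in each mesenchymal class, and right, Igfbp2 CPM (log axis) in mesenchymal cells without and with such UMIs, in the smooth muscle subset without them, and in Sox10 cells, neural progenitors and neurons, 1 point per library. Mesenchymal cells with neural UMIs lay above those without in each library, between them and neurons.

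Igfbp2 was higher at E10.5 than at E9.5 in each class tested. The stage fit used the 2 E9.5 and 4 E10.5 libraries with genotype as a term. In all mesenchymal cells the log2 change was 1.94 ± 0.31 (adjusted p = 0.00808), with 15.3% of genes called, and 1.79 ± 0.34 without cells with neural UMIs (adjusted p = 0.00588), with 18% called. In Hox 3 cells it rose by 1.73 ± 0.33 (adjusted p = 0.0192), with 8.94% of genes called, and without cells with neural UMIs by 1.77 (adjusted p = 0.0141), with 14.3% called. Foxf1 cells went from 11.9 and 17.3 CPM in control and Tbx1null at E9.5 to 141 and 118 CPM in controls and 66.8 and 155 CPM in Tbx1null libraries at E10.5. Their change of 2.57 ± 0.33 (adjusted p = 0.000445) had 15% of genes called both with and without cells with neural UMIs. In Sox10 cells the change was 1.27 ± 0.34 (adjusted p = 0.0244), with 10.1% called, and was lost in cells thinned to 5000 UMIs (0.75, adjusted p = 0.247), by the fold threshold with class limits of 3 UMIs (0.98, adjusted p = 0.0278), without control E10.5 replicate 1 (1.12, adjusted p = 0.0599) or, by the fold threshold, without Tbx1null E10.5 replicate 2 (0.92, adjusted p = 0.0348). Progenitors changed by 0.97 ± 0.22 (adjusted p = 0.0238), under the fold threshold, with 5.01% of genes called, and passed it without control E10.5 replicate 2 (1.03) or Tbx1null E10.5 replicate 1 (1.09).

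Igfbp5, a binding protein that also binds extracellular matrix and is abundant in bone, had the largest change from E9.5 to E10.5 among the members tested in mesenchymal cells. In all mesenchymal cells it stood at 5.88 CPM at E8.5, at 5.02 and 6.89 CPM in control and Tbx1null at E9.5, at 91.4 and 99.3 CPM in the E10.5 controls and at 139 and 237 CPM in the E10.5 Tbx1null libraries. Without cells with neural UMIs these were 3.51 CPM, 3.08 and 5.27 CPM, 94.2 and 98.7 CPM, and 164 and 349 CPM. The 4 E10.5 libraries thus lay well above the 3 earlier ones. The log2 change from E9.5 to E10.5 was 3.96 ± 0.27 (adjusted p = 0.00263) in all mesenchymal cells and 4.75 ± 0.34 (adjusted p = 0.000356) without cells with neural UMIs. It was 3.56 ± 0.27 in Hox 3 cells (adjusted p = 0.00264) and 4.36 ± 0.32 without cells with neural UMIs (adjusted p = 6.58e-05). In Foxf1 cells it was 4.53 ± 0.28 (adjusted p = 8.35e-06) and 4.61 ± 0.28 without them. In Sox10 cells it was -0.39 ± 0.23 (adjusted p = 0.232) and in progenitors 0.34 (adjusted p = 0.459), neither past the threshold.

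Neurons had the opposite order over stages, given as levels because no stage test was made in them. Their Igfbp5 was 58.5 CPM at E8.5, 201 and 128 CPM in control and Tbx1null at E9.5, and 39.8, 44.4, 52.4 and 41.5 CPM in the 4 E10.5 libraries. Neurons were the highest class in the 3 libraries before E10.5 and Hox 3 cells in the 4 libraries at E10.5. The neuron class was small at E9.5, with 237 and 224 cells against 1089 to 2596 at E10.5. Over cells thinned to 5000 UMIs, 38.3% and 24.1% of neurons had an Igfbp5 UMI at E9.5 and 9.8% to 13.3% at E10.5.

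Along the axis Igfbp5 was highest in Hox 3 cells at E10.5. They held 176 and 236 CPM in controls and 176 and 265 CPM in Tbx1null libraries, and without cells with neural UMIs 211 and 241 CPM and 244 and 498 CPM. Hoxa2 cells held 47.3 and 62.1 CPM in controls and 62.5 and 165 CPM in Tbx1null libraries, and Hox-less cells 49.1 and 57.7 CPM and 56.8 and 177 CPM. The classes overlapped over libraries, but the Hox 3 value was above the Hoxa2 and Hox-less values of its own library in 4 of 4. Hox 3 cells exceeded Hoxa2 cells by a log2 fold change of 1.47 ± 0.17 (adjusted p = 0.00172), and by 1.87 ± 0.09 without cells with neural UMIs (adjusted p = 2.97e-06). Foxf1 cells were lower than Hox 3 cells by -1.16 ± 0.36 (adjusted p = 0.0530), which passed the threshold without cells with neural UMIs at -1.60 ± 0.25 (adjusted p = 0.00180) and without Tbx1null E10.5 replicate 1 at -1.58 (adjusted p = 0.0237). Sox10 cells were -1.83 ± 0.21 lower than mesenchymal cells (adjusted p = 0.000299) and progenitors -1.88 ± 0.23 lower (adjusted p = 0.00103), and without cells with neural UMIs the changes were -2.09 ± 0.27 and -2.11 ± 0.29. Distal arch cells were lower in Igfbp5 than other mesenchymal cells in the controls, with 0.47 against 8.83 CPM at E9.5 and 56.2 against 133 CPM and 46.9 against 155 CPM at E10.5, and the difference was smaller in the E10.5 Tbx1null libraries, with 109 against 152 CPM and 232 against 237 CPM, a contrast that was not tested.

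**Figure D3:**
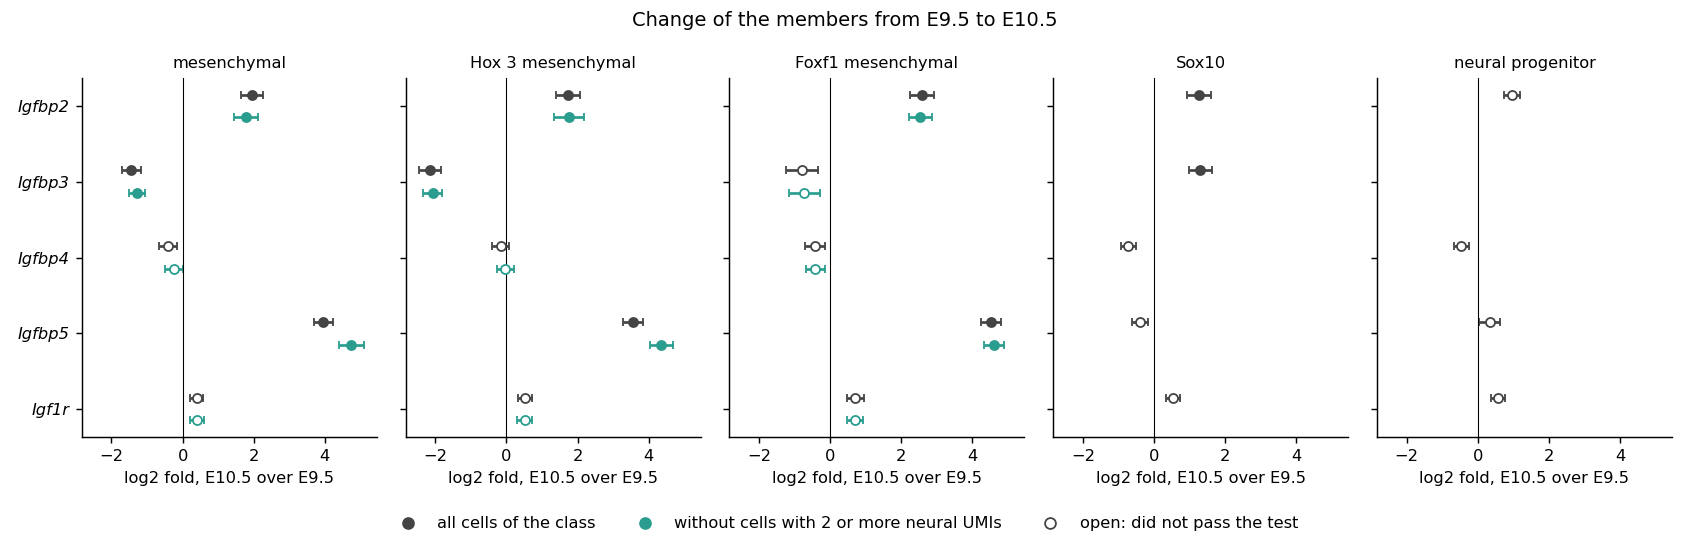
Log2 fold change of each member from E9.5 to E10.5 with its SE in mesenchymal, Hox 3, Foxf1, Sox10 and neural progenitor cells, black for all cells of a class, teal without cells with 2 or more neural UMIs, and open points for changes that did not pass the threshold. Igfbp5 rose by 3.56 to 4.75 in the mesenchymal classes, Igfbp2 rose by 1.73 to 2.57 there, Igfbp3 fell in mesenchymal and Hox 3 cells and rose in Sox10 cells, and Igfbp4 and Igf1r stayed within the fold threshold.

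Among the 8 classes, Igfbp5 passed the genotype test at E10.5 in Foxf1 cells. They held 53.9 and 41.9 CPM in the controls (617 and 558 UMIs in 517 and 795 cells) and 161 and 185 CPM in the Tbx1null libraries (2358 and 1534 UMIs in 530 and 327 cells). The Tbx1null libraries lay above both controls and the groups did not overlap. The log2 fold change was 1.76 ± 0.24 (adjusted p = 0.0370), in a comparison in which 0.0794% of genes were called, and without cells with neural UMIs, 54.3 and 42.1 CPM against 163 and 191 CPM, it was 1.79 ± 0.25 (adjusted p = 0.0176), with 0.0803% called. Under the 15 alternatives the change was 1.20 to 1.94 and the adjusted p 1.92e-12 to 0.294. Each alternative that left out a library compared 1 library with 2, its spread coming from the pair alone. The change passed the threshold in 11 of the 15 and did not without control E10.5 replicate 2 (1.60, adjusted p = 0.294), with doublets kept (1.41, adjusted p = 0.131), with a cell filter of 200 genes and 5% mitochondrial UMIs (the 200-gene filter, 1.69, adjusted p = 0.0708) or in Foxf1 cells with a Hox 3 UMI alone (1.20, adjusted p = 0.251). At E9.5, with 1 library a genotype and no test, Foxf1 cells held 13 UMIs in the control and 70 in the Tbx1null library, 1.74 and 5.13 CPM, a ratio of 2.95 with an exact 95% interval of 1.62 to 5.82 for counting error only. These UMIs lay in few cells. Without cells with neural UMIs, the highest single cell held 8 in the control and 26 in the Tbx1null library. The interval does not cover such clumping, and no direction is read from the ratio.

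The Foxf1 class was not made up alike in the genotypes. Of Foxf1 cells at E10.5, 27.5% and 21.8% had a Hox 3 UMI in the controls and 48.7% and 69.7% in the Tbx1null libraries, and Hox 3 UMIs went with higher Igfbp5. Foxf1 cells with a Hox 3 UMI held 106 and 70.8 CPM in controls and 228 and 209 CPM in Tbx1null libraries. Those without held 29.3 and 31.0 CPM in controls and 98.9 and 123 CPM in Tbx1null, a log2 change of 1.79 (adjusted p = 0.00889). The Tbx1null libraries were thus the higher in each of the 2 subsets, with the test passed in the one without Hox 3 UMIs. When cells were split by the number of Foxf1 UMIs, those with 1 held 101 and 50.3 CPM in controls and 205 and 319 CPM in Tbx1null, and those with 3 or more held 25.9 and 28.3 CPM and 112 and 103 CPM, again without overlap. Smooth muscle markers summed to 564 and 632 CPM in the Foxf1 cells of controls and 498 and 758 CPM in those of Tbx1null libraries, which overlapped, and neuron markers in the Foxf1 cells without neural UMIs to 20.2 and 17.6 CPM and 23.8 and 135 CPM. Pharyngeal mesoderm markers reached 74.8 CPM in Foxf1 cells over all libraries, the highest of the classes, against at most 21.8 CPM in Hox 3 cells. Without cells with neural UMIs these maxima were 72.4 and 45.0 CPM. The part of mesoderm cells in the Igfbp5 level of Foxf1 cells was not tested.

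The difference also showed in the share of cells with Igfbp5. Over cells thinned to 5000 UMIs, 13.5% and 13.3% of Foxf1 cells had a UMI in controls and 38.9% and 36.8% in Tbx1null libraries, against 28.6% and 24.7% and 69.4% and 61.8% before thinning, with median depths of 15310 to 26003.5 UMIs. No class is known to lack Igfbp5, and in neural progenitors of the same libraries, with median depths of 10280 to 16302.5 UMIs, the thinned share was 8.28% and 15.9% in controls and 9.45% and 15.5% in Tbx1null, which overlapped. In Hox 3 cells the thinned share was 35.1% and 41.6% in controls and 35.6% and 41.3% in Tbx1null libraries. Without cells with neural UMIs, 287 of 708 and 567 of 1344 Hox 3 cells had a UMI in controls. In the Tbx1null libraries 457 of 945 and 371 of 558 had one, the higher shares, a difference that was not tested.

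**Figure D4:**
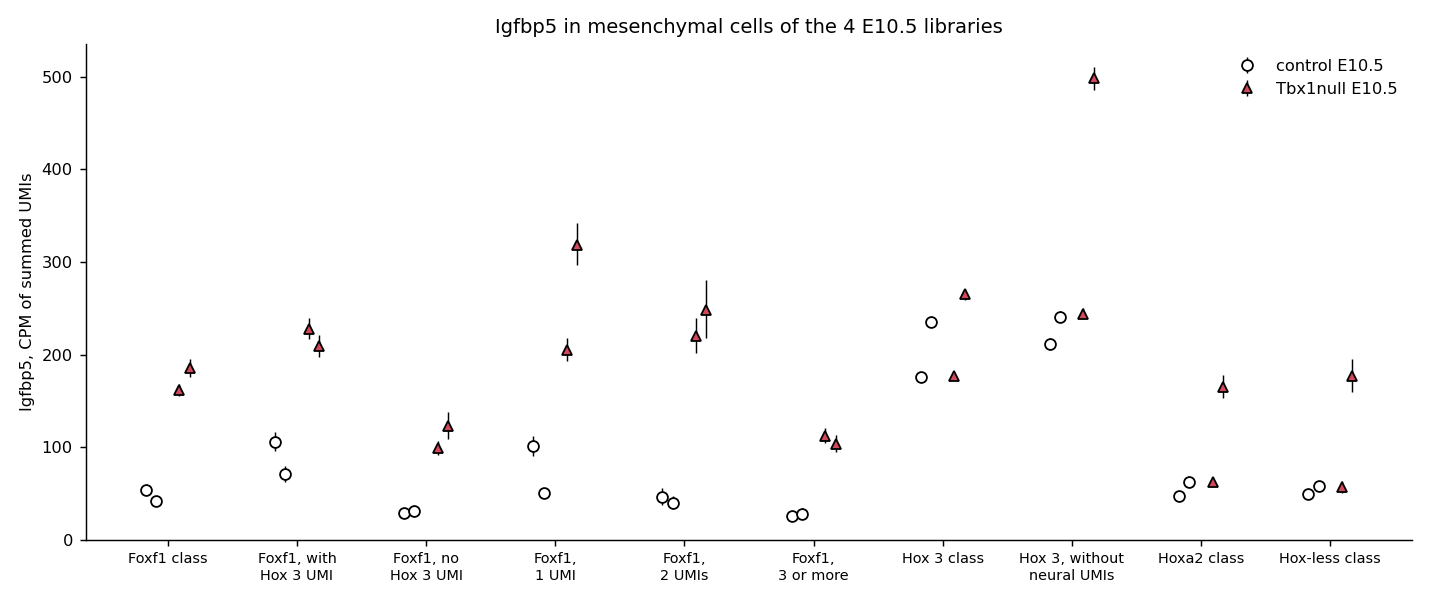
Igfbp5 CPM at E10.5 with exact 95% Poisson intervals (counting error only), circles for control and triangles for Tbx1null libraries. Columns are Foxf1 cells, their subsets with and without a Hox 3 UMI, and those with 1, 2 and 3 or more Foxf1 UMIs. Further columns are Hox 3 cells with and without cells with neural UMIs, Hoxa2 cells and Hox-less cells. The 2 genotypes separate in Foxf1 cells and each of their subsets, at 41.9 to 53.9 against 161 to 185 CPM in all Foxf1 cells. They also separate in Hoxa2 cells (47.3 to 62.1 against 62.5 to 165 CPM) and overlap in Hox-less cells. In Hox 3 cells they overlap with cells with neural UMIs kept and not without them (211 to 241 against 244 to 498 CPM).

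The genotype difference of Igfbp5 was larger in Foxf1 than in Hox 3 cells. In Hox 3 cells it was -0.08 ± 0.26 on the log2 scale (adjusted p = 0.917) and 0.54 ± 0.31 without cells with neural UMIs (adjusted p = 0.541), and 0.0139% and 0.127% of genes were called. A fit of both classes gave a difference between the genotype effects of 1.85 ± 0.22 (adjusted p = 0.0241), with 0.296% of genes called, and 1.32 ± 0.21 without cells with neural UMIs (adjusted p = 0.00790), with 1.88% called. It was not past the threshold with the 200-gene filter (1.60, adjusted p = 0.223) or with doublets kept (1.42, adjusted p = 0.0519). Higher Igfbp5 without overlap, a description that can often arise without a difference, was not particular to Foxf1 cells, although no other class passed the test. It was also seen in Hoxa2 cells (47.3 and 62.1 against 62.5 and 165 CPM), in Hox 3 cells without those with neural UMIs (211 and 241 against 244 and 498 CPM), and, with no test made, in distal arch cells (56.2 and 46.9 against 109 and 232 CPM) and the smooth muscle subset (113 and 93.5 against 161 and 178 CPM). In all mesenchymal cells the groups did not overlap either, 91.4 and 99.3 against 139 and 237 CPM, but the change of 0.74 ± 0.26 did not pass the threshold (adjusted p = 0.289, and 0.246 at 1.22 ± 0.32 without cells with neural UMIs), with 0.0509% and 0.205% of genes called. Between progenitors and mesenchymal cells the genotype effects on Igfbp5 differed by -0.999 ± 0.23 (adjusted p = 0.103), and by -1.42 ± 0.23 without cells with neural UMIs (adjusted p = 0.0406), with 0.0449% and 0.349% of genes called. The former passed without control E10.5 replicate 1 (-1.46, adjusted p = 0.0308).

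The makeup of the mesenchymal cells also differed between the genotypes, which bears on each value over all mesenchymal cells. At E10.5 Hox 3 cells were 31.7% and 22.6% of them in controls and 52.4% and 68.9% in Tbx1null libraries, Hoxa2 cells 32.3% and 36.7% against 20.7% and 9.52%, Hox-less cells 19.99% and 28.6% against 9.48% and 5.62%, and Foxf1 cells 16.02% and 12.2% against 17.4% and 15.97%. With Hox 3 cells richest in Igfbp5, its level over all mesenchymal cells moved together with these shares, and the part of the shares was not tested.

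Igfbp3, the binding protein that forms the long-lived IGF complex of serum, was low throughout and followed the Hox 3 cells at E9.5. Over all mesenchymal cells it stood at 9.47 CPM at E8.5, at 11.2 and 8.99 CPM in control and Tbx1null at E9.5, at 5.43 and 5.36 CPM in the E10.5 controls and at 6.73 and 3.80 CPM in the E10.5 Tbx1null libraries. Hox 3 cells at E9.5 held 27.9 CPM in the control and 15.96 CPM in the Tbx1null library, and 33.9 and 21.7 CPM without cells with neural UMIs, above the 6.60 to 10.2 CPM of the other mesenchymal classes. At E10.5 Hox 3 cells had fallen to 5.35 and 6.79 CPM in controls and 8.01 and 4.32 CPM in Tbx1null libraries, and 7.20, 6.94, 11.7 and 8.13 CPM without cells with neural UMIs. The change from E9.5 was -2.14 ± 0.31 on the log2 scale in Hox 3 cells (adjusted p = 0.0105), -2.07 without cells with neural UMIs (adjusted p = 0.00105) and -1.44 ± 0.26 in all mesenchymal cells (adjusted p = 0.0115), where it was -1.29 ± 0.23 without cells with neural UMIs (adjusted p = 0.00511). In Foxf1 cells it was -0.80 ± 0.45 (adjusted p = 0.208), and passed without Tbx1null E10.5 replicate 1 (-1.43, adjusted p = 0.00292).

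Sox10 cells went the other way. Their Igfbp3 was 5.11 CPM at E8.5, 1.505 and 2.91 CPM in control and Tbx1null at E9.5, 7.96 and 4.54 CPM in the E10.5 controls and 8.14 and 7.61 CPM in the E10.5 Tbx1null libraries. The E10.5 values all lay above the E9.5 values, and the log2 change was 1.31 ± 0.32 (adjusted p = 0.0182). With cells thinned to 5000 UMIs it had no test, as Igfbp3 was below the filter on low counts, and in the other alternatives it was 1.12 to 1.43 and stayed past the threshold. In neural progenitors and neurons Igfbp3 was 0.24 to 0.82 CPM from E9.5 on, and 5.67 and 5.24 CPM at E8.5. Progenitors at E10.5 were lower than mesenchymal cells by -3.54 ± 0.20 (adjusted p = 5.09e-05), whereas Sox10 and mesenchymal cells differed by 0.40 ± 0.21 (adjusted p = 0.168). Without cells with neural UMIs these were -3.84 ± 0.18 and 0.096 ± 0.15 (adjusted p = 0.631).

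Igf1r, the receptor through which both IGFs signal, was nearly level over the classes and was higher in CPM at later stages. It stood at 25.5 CPM in all mesenchymal cells at E8.5, at 38.3 and 47.7 CPM in control and Tbx1null at E9.5, at 84.3 and 83.7 CPM in the E10.5 controls and at 66.6 and 94.0 CPM in the E10.5 Tbx1null libraries. Over all classes the range was 22.6 to 27.7 CPM at E8.5, 37.1 to 51.9 CPM at E9.5 and 65.4 to 107 CPM at E10.5, so that the stages did not overlap. Neurons, for example, held 23.2 CPM, 50.3 and 46.4 CPM, and 75.4 to 104 CPM at the 3 stages. The classes did not separate, with differences of 0.07 ± 0.07 between Sox10 and mesenchymal cells (adjusted p = 0.476) and of 0.09 ± 0.06 between progenitors and mesenchymal cells (adjusted p = 0.301).

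In the main edgeR fits, which scale libraries by TMM factors, no stage change of Igf1r was called. Each stayed under the fold threshold, and only that in Foxf1 cells had an adjusted p under 0.05. The log2 change was 0.39 ± 0.19 in mesenchymal cells (adjusted p = 0.169), 0.54 ± 0.20 in Hox 3 cells (adjusted p = 0.0999), 0.71 ± 0.23 in Foxf1 cells (adjusted p = 0.0387, under the fold threshold), 0.54 ± 0.19 in Sox10 cells (adjusted p = 0.0651) and 0.56 ± 0.19 in progenitors (adjusted p = 0.0840). Without cells with neural UMIs it was 0.41 ± 0.20 in mesenchymal, 0.52 ± 0.21 in Hox 3 and 0.69 ± 0.23 in Foxf1 cells, and the class differences were 0.058 ± 0.073 for Sox10 and 0.098 ± 0.059 for progenitors. In Foxf1 cells thinned to 5000 UMIs it was 1.27 (adjusted p = 0.0128) and was called. Tbx1null E10.5 replicate 1 held the lowest Igf1r of the E10.5 libraries in each class, as it held the highest Igfbp4. It was also the E10.5 library that the paper lists with the fewest somites.

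Apart from Igfbp5 in Foxf1 cells, no member passed the genotype test in any of the 8 classes at E10.5. Igfbp2 in all mesenchymal cells was 136 and 91.2 CPM in controls and 118 and 232 CPM in Tbx1null, a log2 change of 0.38 ± 0.32 (adjusted p = 0.605), and -0.13 ± 0.30 without cells with neural UMIs (adjusted p = 0.880). Igfbp4 changed there by 0.37 ± 0.35 (adjusted p = 0.647), and by 0.75 ± 0.30 without cells with neural UMIs (adjusted p = 0.380). Its Tbx1null values lay above the controls without overlap in all mesenchymal, Hoxa2, Foxf1, Hox-less, Sox10, progenitor and neuron cells. In Hox 3 cells they overlapped, but not without cells with neural UMIs, at 316 to 378 against 515 to 652 CPM (0.62 ± 0.28, adjusted p = 0.464). All these classes come from the same E10.5 libraries, and all mesenchymal cells include the mesenchymal classes, so these separations are not independent. The share of all genes that separate in this way is not given here, and no Igfbp4 change passed the test. In Hox-less cells Igfbp2 was 130.1 and 93.5 CPM in controls and 271 and 233 CPM in Tbx1null, without overlap. Its change there was 0.98 ± 0.24 (adjusted p = 0.0976), and without cells with neural UMIs, at 107 and 91.2 against 170.5 and 110.0 CPM, 0.34 ± 0.26 (adjusted p = 0.582), with 0.827% and 0.443% of genes called. It passed with DESeq2 (1.02, adjusted p = 0.00382) and with the 200-gene filter (1.11, adjusted p = 0.0397). Igfbp5 in Hox-less cells changed by 0.88 ± 0.42 (adjusted p = 0.322), passed without Tbx1null E10.5 replicate 1 (1.52, adjusted p = 0.0496) and was -0.088 without Tbx1null E10.5 replicate 2.

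In Hoxa2 cells Igfbp3 was 5.67 and 4.68 CPM in controls and 1.77 and 1.39 CPM in Tbx1null libraries, which did not overlap. The 1.39 CPM of Tbx1null E10.5 replicate 2 stood for 6 UMIs in 195 cells, close to the floor of 3. The change was -1.82 ± 0.36 (adjusted p = 0.0892), with 0.331% of genes called, and -1.63 ± 0.34 without cells with neural UMIs (adjusted p = 0.158), with 0.229% called. With all 4 libraries it passed in edgeR with no filter on low counts (-1.82, adjusted p = 0.000547). It also passed with a block by replicate number (-1.89, adjusted p = 0.000966), although the labels give same-numbered libraries only a number in common. It was -0.48 (adjusted p = 0.749) in cells thinned to 5000 UMIs. Without Tbx1null E10.5 replicate 1 it was -2.16 and without Tbx1null E10.5 replicate 2 it was -1.64. In the same cells Igfbp4 changed by 0.74 ± 0.29 (adjusted p = 0.313) and passed without Tbx1null E10.5 replicate 2 (1.00, adjusted p = 0.0198), and Igfbp5 by 0.79 ± 0.38 (adjusted p = 0.408) and passed without Tbx1null E10.5 replicate 1 (1.32, adjusted p = 0.0116). Without Tbx1null E10.5 replicate 2, 3 further members passed in Foxf1 cells, Igfbp2 at -0.97 (adjusted p = 0.0049), Igfbp3 at 1.48 (adjusted p = 0.000351) and Igfbp4 at 1.01 (adjusted p = 0.000177), where all 4 E10.5 libraries gave -0.35 ± 0.33, 0.86 ± 0.56 and 0.59 ± 0.33. These p-values rest on 1 Tbx1null library, with the spread taken from the controls alone, and without Tbx1null E10.5 replicate 1 instead Igfbp2 was 0.12 and Igfbp3 -0.38, the opposite direction.

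Sox10 and neural cells likewise gave no member past the genotype threshold. In Sox10 cells Igfbp2 changed by 0.54 ± 0.37 (adjusted p = 0.639) and Igfbp4 by 0.48 ± 0.26 (adjusted p = 0.557), with 0.0553% of genes called. Igfbp2 passed without Tbx1null E10.5 replicate 1 (1.09, adjusted p = 0.00144) and Igfbp4 without Tbx1null E10.5 replicate 2 (0.77, adjusted p = 0.0343). In progenitors Igfbp4 was 43.7 and 37.7 CPM in controls and 89.0 and 74.0 CPM in Tbx1null, without overlap, a change of 0.91 ± 0.24 (adjusted p = 0.485), with 0.0228% called. In neurons it was 53.7 and 44.2 CPM against 95.6 and 68.3 CPM, a change of 0.68 ± 0.26 (adjusted p = 0.866). No gene was called by edgeR in neurons (0% of those tested, 703 at an unadjusted p under 0.05), and DESeq2 called 23. Igfbp2 differed by 0.02 ± 0.26 in progenitors and -0.12 ± 0.22 in neurons.

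At E9.5 each genotype had 1 library, so the ratios below carry no test and their exact 95% intervals cover counting error only. The Tbx1null to control ratio of Igfbp2 was above 1 in each class, at 1.92 (1.82 to 2.02) in all mesenchymal cells, 2.12 (1.99 to 2.25) without cells with neural UMIs, 2.54 (2.22 to 2.92) in Hoxa2 cells and 1.30 (1.19 to 1.41) in neurons. That of Igfbp5 was above 1 in mesenchyme, at 1.37 (1.24 to 1.52), and below 1 in Sox10 cells, at 0.578 (0.502 to 0.665), and in neurons, at 0.634 (0.559 to 0.719). Igfbp3 stood at 0.572 (0.495 to 0.659) in Hox 3 cells, where its E9.5 level was highest. In all mesenchymal cells Igfbp4 stood at 1.19 (1.17 to 1.20), Igf1r at 1.25 (1.20 to 1.30) and Igfbp3 at 0.7997 (0.739 to 0.865).

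The members were read against a list of 41 genes of the IGF pathway in 7 roles, which includes them. From E9.5 to E10.5 in mesenchymal cells 9 of its 39 tested genes rose and 3 fell, where 15.3% of all genes were called. The median log2 change was 0.30 over the list and 0.04 over all genes tested, and both ligands were among the list genes that rose. Igf1 went from 1.13 and 1.19 CPM at E9.5 to 33.9 and 52.7 CPM in the E10.5 controls and 22.6 and 42.7 CPM in the E10.5 Tbx1null libraries, a log2 change of 4.46 ± 0.38 (adjusted p = 0.00295). Igf2 went from 29.3 and 31.8 CPM to 175 and 199 CPM in controls and 89.5 and 121 CPM in Tbx1null, a change of 1.62 ± 0.28 (adjusted p = 0.00981). The groups of E10.5 did not overlap for Igf2 in CPM, and its genotype test did not pass. The ligands, like Igfbp4 and Igfbp5, were lower in Sox10 cells, by -5.55 for Igf1 and -3.93 for Igf2, and in progenitors, by -6.04 and -3.99.

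Other rises in mesenchyme were those of Igfbp7 (2.49), a binding protein with low affinity for IGF, of Pappa (2.00 ± 0.38), which encodes the protease that cuts IGFBP4 and IGFBP5, of the serine protease gene Htra3 (2.03), of the adaptor gene Grb14 (1.77) and of the PI3 kinase subunit gene Pik3r1 (1.00). Stc2 (-3.32 ± 0.24) and Stc1 (-1.50), whose products inhibit the PAPP-A proteases, fell together with Igfbp3. The other receptors Igf2r, which clears IGF2, and Insr, the insulin receptor, were at 44.8 and 51.3 CPM and at 9.62 and 11.5 CPM in the mesenchymal cells of the E10.5 controls. Without cells with neural UMIs the list gave 9 rises and 3 falls of 38 tested, where 18% of all genes were called.

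In the remaining stage comparisons 8 of 35 tested list genes rose and 2 fell in Hox 3 cells (median 0.50, and 0.13 over all genes), 8 of 34 rose and 1 fell in Foxf1 cells (median 0.53, and 0.08 over all genes), 5 of 32 rose and 1 fell in Sox10 cells, and 2 of 32 rose and 2 fell in progenitors. Over all genes the shares called in these 4 comparisons were 8.94%, 15%, 10.1% and 5.01%, and 15.3% in all mesenchymal cells. Between classes 2 of 36 were higher and 7 lower in Sox10 than in mesenchymal cells, where 18.4% of all genes were called, and 2 of 35 higher and 11 lower in progenitors, where 17.6% were. By genotype the list gave Igfbp5 in Foxf1 cells (1 of 33 tested) and Igfbpl1 in Hox-less cells (1 of 34), and no gene in the other 6 classes. Igfbpl1, an IGFBP-like gene, is neuronal here, at 345 and 700.3 CPM in the neurons of the E10.5 controls, and its change of 2.70 ± 0.37 in Hox-less cells (adjusted p = 0.0186) was not past the threshold without cells with neural UMIs.

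Genes whose levels ran most like each member were found over 47 profiles (1 class of 1 library with at least 50 cells), which share libraries, as Pearson's r of log2(CPM + 1) over 8132 genes. They were Aplp1 (0.92), Klhdc8b, Cib2, Fam171b and Lrrn1 (0.91) for Igfbp2, Dusp6 (0.88) and Spry2 (0.84) ahead of Cd302, Gsto1 and Ripk3 for Igfbp3, and Bgn (0.97), Rarg (0.94), Foxc1, Twist1 and Pcolce (0.93) for Igfbp4. For Igfbp5 they were Dyrk1b (0.79), Scube1, Ccng2, Foxn3 and Flywch2 (0.78), and for Igf1r Bptf (0.98), Prrc2b, Dot1l, Kdm2a and Hmbox1 (0.97). Dusp6 and Spry2 encode feedback inhibitors of the ERK cascade, Bgn the matrix proteoglycan biglycan, and Twist1 is one of the genes by which mesenchymal cells were chosen. Between members r was -0.63 for Igfbp2 with Igfbp3, 0.61 for Igfbp2 with Igfbp5, 0.62 for Igfbp3 with Igfbp4 and 0.60 for Igfbp5 with Igf1r. The neighbouring genes Igfbp2 and Igfbp5 thus had alike profiles in part. Within Foxf1 cells thinned to 5000 UMIs, Igfbp5 was found in 30.4% and 27.6% of cells with Igfbp2 and in 42.3% and 45.5% of cells without it in the E10.5 Tbx1null libraries, shares whose difference was not tested.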

How the data were processed

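Count matrices of UMIs per gene and cell barcode were deposited by the authors, made with Cell Ranger 6.0.1 on mm10 per the labels, with no other normalization. Barcodes were kept from 1000 genes upward and with mitochondrial UMIs up to 10%, and the highest Scrublet scores (scanpy 1.11.5) were removed at 0.8% of barcodes per 1000, which left 69.7% to 93.3%. Sums of counts over the cells of a class in a library were given as CPM. The sums were tested with edgeR 4.0.16 (R 4.3.3) by its quasi-likelihood test with TMM factors, filterByExpr and Benjamini-Hochberg adjustment over all genes tested, with library as a term between classes and genotype as a term between stages. SEs were taken as the size of the log2 fold change over the square root of F. The step was checked on simulated counts. Libraries were the replicates. Embryo pools stand behind them, and p-values measure only the spread between these pools. Ratios and levels of single libraries have exact 95% Poisson intervals, and PCR or sorting error is not in them. A count of 3 UMIs was the floor for detection.

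The members, classes and pathway list were chosen with earlier results of these data known. Named genes were the members, pathway genes past the test with the ligands and receptors, and the 5 genes of highest correlation with each member. Leaving out mesenchymal cells with 2 or more neural UMIs, dividing Foxf1 cells by Hox 3 UMIs and leaving out the smooth muscle subset were added after seeing the data. Other alternatives were DESeq2 1.42.0, RLE factors, no filter on low counts, cells thinned to 5000 UMIs, class limits of 3 UMIs, a cell filter of 200 genes and 5% mitochondrial UMIs (the 200-gene filter), doublets kept, a replicate block and leaving out each E10.5 library. No UMIs of free RNA were removed. Gene symbols and positions were matched for 5 of 5 members, with promoter sequences from RefSeq (GRCm38.p6) and gene positions from GENCODE vM21.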

Additional observations from a re-analysis of the deposited data

Results flagged for a closer look

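A single value met a preset rule for a closer look, because the effect of genotype differed between classes by a test of the difference itself. The E10.5 genotype difference of Igfbp5 was 1.85 larger on the log2 scale in Foxf1 than in Hox 3 mesenchymal cells (edgeR adjusted p = 0.0241). Under the alternatives it was 1.32 to 2.26, and the adjusted p 7.48e-15 to 0.223.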

How the results depend on the processing

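Over the alternatives to the 103 log2 fold changes of members, 1136 values kept direction and side of the threshold, 44 passed it newly, 13 lost it and 63, in 32 comparisons of a member, turned direction, with 0 of those 63 called before or after. With RLE factors 103 of 103 kept both. Where leaving out a library left 1 in a group, that library was taken to vary like the others. The 40 E9.5 ratios stayed within their counting intervals with a pseudocount of 5 UMIs. The number of members called moved by over 1.5 times as follows, and the cause was not tested. Smaller moves were from 2 to 3 by stage in Foxf1 cells (thinned, and without Tbx1null E10.5 replicate 1) and from 4 to 3 for progenitors against mesenchyme (doublets kept, and without either control). By genotype it went from 0 to 1 in Hoxa2 cells with no filter and with the replicate block (leave-one-out 0 to 2). In Foxf1 cells it went from 1 to 0 with the 200-gene filter, doublets kept or cells with Hox 3 UMIs only (leave-one-out 0 to 4). In Hox-less cells it went from 0 to 1 with DESeq2 and the 200-gene filter and to 2 with no filter and with the replicate block (leave-one-out 0 to 1), in Sox10 cells leave-one-out gave 0 to 1, and in progenitors the replicate block gave 1. Between classes, leave-one-out gave 1 to 2 (main 1) for Hox 3 against Hoxa2 and 0 to 1 for Hox-less against Hoxa2, and for Foxf1 against Hox 3 it went from 0 to 1 with no filter, thinned cells, limits of 3 UMIs and neural cells left out (leave-one-out 0 to 1). By stage, Sox10 cells went from 2 to 0 when thinned (Igfbp3 then below the filter on low counts) and to 1 with limits of 3 UMIs (leave-one-out 1 to 2), and progenitors gave 0 to 1. The difference in genotype effect went from 1 to 2 with DESeq2 and limits of 3 UMIs, 3 with no filter and 0 with the 200-gene filter or doublets kept for Foxf1 against Hox 3 (leave-one-out 1 to 3), and from 0 to 1 with DESeq2, thinning or neural cells left out and 2 with no filter for progenitors against mesenchyme (leave-one-out 0 to 1). The labels give same-numbered E10.5 libraries only a number in common. The correlation of their deviations was 0.0332 to 0.352 over 8 classes with 2 pairs, and whether they shared more was not tested. With the replicate block Igfbp3 in Hoxa2 cells (-1.89, adjusted p = 0.000966), Igfbp2 (0.98, 0.000543) and Igfbp5 (0.72, 0.0169) in Hox-less cells and Igfbp4 in progenitors (0.91, 7.7e-05) passed.

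The log2 fold changes that turned were, by genotype in mesenchymal cells, Igfbp2 0.38 (-0.16 thinned, -0.13 without cells with neural UMIs, -0.028 to 0.77 leave-one-out), Igfbp3 -0.21 (0.21 thinned, 0.21 without cells with neural UMIs, -0.78 to 0.23 leave-one-out) and Igfbp4 0.37 (-0.15 to 0.79 leave-one-out). In Hox 3 cells they were Igfbp2 0.19 (-0.67 thinned, -0.46 without cells with neural UMIs, -0.25 to 0.56 leave-one-out), Igfbp3 -0.11 (0.82 thinned, 0.066 with limits of 3 UMIs, 0.38 without cells with neural UMIs, -0.71 to 0.33 leave-one-out), Igfbp4 0.19 (-0.31 to 0.58 leave-one-out) and Igfbp5 -0.077 (0.25 thinned, 0.14 with limits of 3 UMIs, 0.075 with the 200-gene filter, 0.54 without cells with neural UMIs, -0.29 to 0.17 leave-one-out). Further genotype turns were Igfbp2 0.14 in Hoxa2 cells (-0.037 thinned, -0.075 without cells with neural UMIs, -0.28 to 0.52 leave-one-out), Igfbp2 -0.35 (0.024 in those with a Hox 3 UMI, -0.97 to 0.12 leave-one-out) and Igfbp3 0.86 (-1.04 in those without a Hox 3 UMI, -0.38 to 1.48 leave-one-out) in Foxf1 cells and Igfbp5 0.88 in Hox-less cells (-0.088 to 1.52 leave-one-out). With leave-one-out, Sox10 cells gave Igfbp2 0.54 (-0.16 to 1.09), Igfbp3 0.34 (-0.044 to 0.76) and Igfbp5 -0.29 (-0.59 to 0.031), progenitors Igfbp2 0.016 (-0.21 to 0.29, and -0.014 thinned), Igfbp5 -0.31 (-0.74 to 0.21) and Igf1r -0.21 (-0.38 to 0.021), and neurons Igfbp3 0.29 (-0.24 to 0.71) and Igfbp5 0.096 (-0.098 to 0.27). Between classes they were Igfbp4 -0.18 (0.087 thinned, 0.20 without cells with neural UMIs) and Igf1r 0.026 (-0.0059 to 0.050 leave-one-out) for Hox 3 against Hoxa2, Igfbp3 -0.31 (-0.70 to 0.063 leave-one-out) and Igfbp4 0.47 (-0.012 thinned, -0.010 without cells with neural UMIs) for Foxf1 against Hox 3, Igfbp3 0.40 for Sox10 against mesenchyme (-0.12 thinned), and Igfbp3 -0.0022 (0.25 with limits of 3 UMIs, -0.0039 to 0.083 leave-one-out) and Igfbp5 0.29 (-0.053 thinned) for neurons against progenitors. By stage, thinning turned Igfbp4 in Hox 3 cells (-0.16 to 0.068) and Igfbp5 in Sox10 cells (-0.39 to 0.18). In the difference of genotype effects they were Igfbp2 -0.59 (0.10 thinned, 0.045 without cells with neural UMIs) and Igfbp4 0.39 (-0.055 without cells with neural UMIs) for Foxf1 against Hox 3, and Igfbp2 -0.32 (0.21 thinned, 0.22 without cells with neural UMIs) and Igf1r 0.087 (-0.013 thinned) for progenitors against mesenchyme.

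Calls over all genes moved more. By genotype they were 8 (5 to 1261) in mesenchymal, 2 (2 to 193) in Hox 3, 44 (24 to 815) in Hoxa2, 10 (3 to 1311) in Foxf1, 103 (41 to 1145) in Hox-less, 7 (4 to 775) in Sox10, 3 (0 to 548) in progenitor and 0 (0 to 118) in neuron cells. Stage calls were 2464 (1540 to 3136) in mesenchymal, 1278 (478 to 1966) in Hox 3, 1883 (740 to 2497) in Foxf1, 1253 (566 to 1710) in Sox10 and 674 (488 to 1014) in progenitor cells, class calls 820 (236 to 1022), 1333 (down to 455), 437 (58 to 595) and 2844 (1749 to 3010) for Hox 3 against Hoxa2, Foxf1 against Hox 3, Hox-less against Hoxa2 and Sox10 against mesenchyme, and calls on the genotype effect 42 (7 to 593) and 7 (0 to 822). With DESeq2 the split of higher and lower genotype calls went from 0 and 8 to 413 and 199 in mesenchymal cells, from 12 and 32 to 172 and 131 in Hoxa2 cells and from 4 and 6 to 67 and 43 in Foxf1 cells. Depth limited Igfbp3 in neural cells, at 3 and 1 UMIs in the neurons of control and Tbx1null at E9.5, and Igfbp5 in Foxf1 cells at E9.5.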

Other observations

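Cells that fell in none of the classes held Igfbp2 at 125 CPM at E8.5, 111 and 165 CPM in control and Tbx1null at E9.5, 452 and 278 CPM in the E10.5 controls and 977 and 543 CPM in the E10.5 Tbx1null libraries, which did not overlap at E10.5. These cells had no rule of their own and were not tested.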
